A study of Mus musculus with 3 samples.

Results

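The cells described here carried at least 3 UMIs (unique molecular identifiers, each counting 1 captured RNA molecule) of Ccl24 and little C1q. Of 19707 barcodes, 463 met the whole rule, with 223, 85 and 155 in replicates 1, 2 and 3. The rule asked for at least 1000 UMIs, under 20% of UMIs from mitochondrial genes, at least 1 UMI of Ptprc (CD45, the leukocyte surface protein), no Pdgfra (a fibroblast receptor) and no Cd3e (a T-cell receptor subunit). It also asked for under 15 UMIs of C1qa, C1qb and C1qc and under 10 of S100a8 and S100a9 per 10000 UMIs. The members were thus chosen by their measured levels of these genes, whose values are given as a description. The cells are called Ccl24-positive C1q-low cells, or the class.

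All 3 libraries belong to 1 group: quadriceps muscle with its fibrous PCL implant, taken at week 6 from wild-type C57BL/6 mice whose hindlimb volumetric muscle loss defect had been filled with PCL (polycaprolactone, a degradable polyester) in particulate form. Dead cells were removed on magnetic columns, CD45+ and CD45- fractions were separated and remixed 1:1, and 10x Genomics 3′ v3.1 libraries were made, so the share of immune cells reflects the remix. There was no sham, uninjured or implant-free group, no age is given, and the labels do not say whether replicates are separate animals. Comparisons were therefore made between classes of cells within libraries. A p-value here reflects no more than the scatter among 3 libraries, or among 2 in 1 of the comparisons. Part or all of that scatter may be technical.

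CCL24 (eotaxin-2) is a secreted chemokine that attracts eosinophils through the receptor CCR3 and is known as a product of macrophages exposed to the type 2 cytokines IL-4 and IL-13. C1q, the first component of the classical complement pathway, is made by many mature tissue macrophages and binds dying cells and immune complexes. Of the other genes in the working name of the class, F10 encodes coagulation factor X, Met the receptor of hepatocyte growth factor, Arg1 the enzyme arginase 1 and Pdcd1lg2 the checkpoint ligand PD-L2.

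The libraries held 104482261 to 192348779 UMIs over 4996 to 8643 barcodes. The gate on UMIs, mitochondrial share, Ptprc, Pdgfra, S100a8 with S100a9 and Cd3e left 1511, 816 and 1307 immune cells, 3634 in all. Libraries shared 10 to 13 barcodes in each pair, and no shared barcode was a member of the class in both libraries. Class members had a median of 16318, 11792 and 14414 UMIs and of 4045, 3355 and 3760 genes.

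The class made up 14.8%, 10.4% and 11.9% of the gated immune cells in replicates 1, 2 and 3, with exact 95% binomial intervals of 13 to 16.6%, 8.41 to 12.7% and 10.2 to 13.7% (counting error only). The mean was 12.3% ± 2.21 (SD, n = 3). The intervals of replicates 1 and 2 did not overlap, and that of replicate 3 overlapped both. The 463 cells held 13338 Ccl24 UMIs, which were 66.6%, 59.9% and 67.6% of all Ccl24 UMIs in the libraries. The 116 cells that passed the same gates with C1q at 15 or more per 10000 held 1763 Ccl24 UMIs, a mean of 9.14% ± 3.66 (SD, n = 3).

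Ccl24 itself varied widely within the class. The median member had 13, 9 and 12 Ccl24 UMIs, the highest had 445, 164 and 151, and 257 of the 463 members had 10 or more. At the lower edge, 45 members had exactly 3 Ccl24 UMIs, and 67 cells that met every other condition stayed outside with 2. Over the members at 3, F10 stood at 255, 720 and 405 CPM (UMIs per 1000000 summed UMIs of a class in a library), against 342, 200 and 230 CPM over the cells at 2. Csf1, which encodes the growth factor of macrophages, stood at 107, 229 and 102 CPM just inside and at 73.8, 61.2 and 35.8 CPM just outside. At the C1q edge, 20 members lay between 12 and 15 per 10000 and 13 cells outside between 15 and 18. C1q was not detected in 218 members. Cells with at least 3 UMIs of Pdgfra and no Ptprc, called Pdgfra-positive below, should lack Ccl24. Of these, 1.18% ± 0.406 (SD, n = 3) had a Ccl24 UMI. Barcodes with both Pdgfra and Ptprc are not part of this share.

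**Figure D1:**
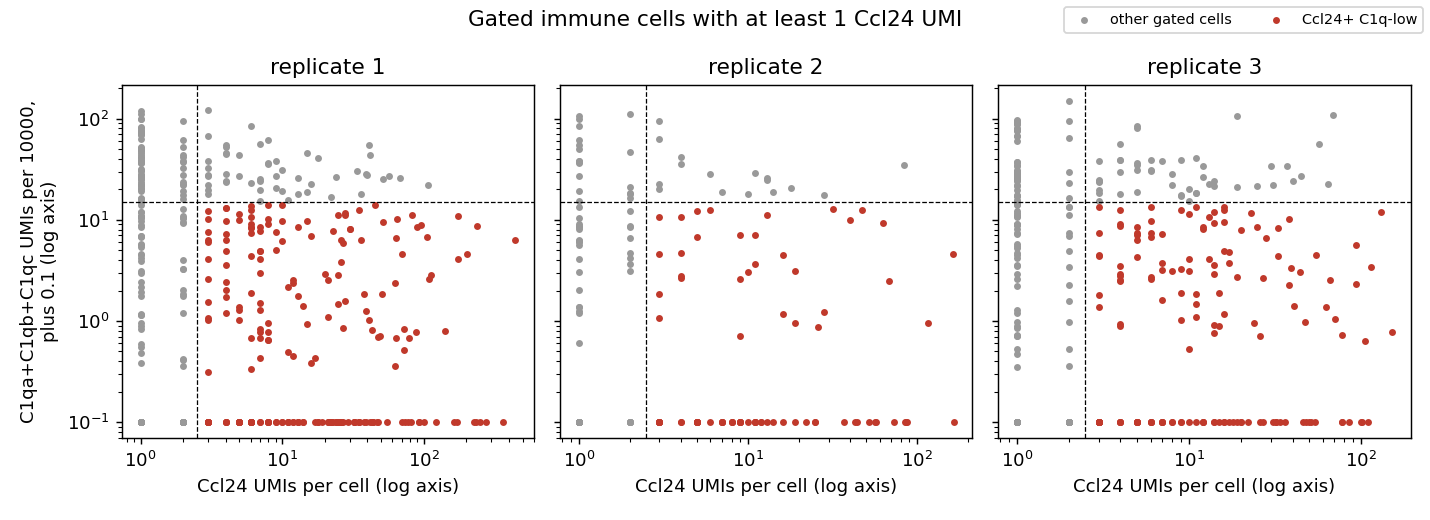
Ccl24 UMIs per cell (horizontal, log axis) against C1q UMIs per 10000 plus 0.1 (vertical, log axis) in the gated immune cells with at least 1 Ccl24 UMI, with 1 panel for each replicate. Red points are the 463 members of the class, and dashed lines are the thresholds of 3 Ccl24 UMIs and 15 C1q UMIs per 10000.

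The name macrophage was checked against defining genes. Csf1r, the receptor of CSF1, had a UMI in 94.8% ± 0.699 of members, the lysosomal protein gene Cd68 in 83.0% ± 3.30, the lysozyme gene Lyz2 in 99.6% ± 0.331 and the integrin gene Itgam in 93.7% ± 4.67 (SD, n = 3). Adgre1, which encodes the macrophage protein F4/80, had a UMI in only 44.9% ± 2.38 of members, and in 24.6% once each cell was thinned to 5000 UMIs (16, 10 and 14 shallower members left out). Thinned in the same way, Adgre1 was seen in 49.5% of the Ccl24-positive C1q-high cells (replicates 1 and 3) and in 34.0% of cells with at least 3 UMIs of the monocyte gene Ly6c2 and no Ccl24. The Pdgfra-positive cells, which should lack these genes, gave 0.514% for Adgre1 and 2.49% for Csf1r at that depth. The 4 broad myeloid genes were thus seen in most members and F4/80 RNA in fewer than the others, and 174 of the 463 members also passed a stricter macrophage gate (Csf1r and Adgre1 present, Ly6c2 and the dendritic-cell receptor gene Flt3 absent). Summed over 10 macrophage markers, these genes among them, the class stood at 11069 to 13320 CPM. The Ly6c2-positive cells overlapped it, at 10255 to 13756 CPM. Macrophages without Ccl24, which had to pass that gate, stood higher. Their sums were 15914 to 17715 CPM with little C1q and 23020 to 23447 CPM with high C1q.

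The genes of the working name did not behave alike. F10 was seen in 88.4% ± 0.585 of members (72.7% after thinning) at 365, 480 and 416 CPM, and Met in 70.1% ± 3.90 (51.7% after thinning) at 352, 362 and 310 CPM. In Ccl24-zero C1q-low macrophages, F10 stood at 225, 221 and 192 CPM and Met at 256, 247 and 233 CPM. In Ccl24-zero C1q-high macrophages, F10 stood at 93.4, 126 and 93.9 CPM and Met at 135, 140 and 120 CPM. For both genes the order of these 3 classes was the same in every library with no overlap. In Pdgfra-positive cells F10 had a UMI in 1.35% and Met in 14.7% of cells, without thinning. In the Ccl24-positive C1q-high cells F10 stood at 234, 234 and 275 CPM, below the class, while Met stood at 246, 376 and 214 CPM, overlapping it, with a UMI in 70.8% of cells. Arg1 had a UMI in 14.6% ± 2.65 of members at 45.1, 55.5 and 46.1 CPM, and overlapped the Ccl24-zero C1q-low macrophages, at 38.7, 25.9 and 58.7 CPM. In replicate 3 of the latter 1 cell held 72.4% of the Arg1 UMIs. Without each library's top cell, Arg1 stood at 39.8, 35.4 and 30.7 CPM in the class and at 28, 17.1 and 16.3 CPM in those macrophages, without overlap. The Ccl24-zero C1q-high macrophages overlapped the class in Arg1 either way. They stood at 73.2, 26.9 and 24.3 CPM with all cells and at 46.1, 12.3 and 16.5 CPM without top cells. Pdcd1lg2 had a UMI in 6.71% ± 1.54 of members, against 2.71% of the Ccl24-zero C1q-low macrophages, 2.95% of the Ccl24-zero C1q-high macrophages and 5.47% of the monocytes. Its level was 4.23, 5.98 and 6.53 CPM in the class, 2.54, 2.11 and 1.47 CPM in the first of these and 2.32, 1.35 and 1.42 CPM in the second, low throughout and higher in the class without overlap. At least 2 of F10, Arg1, Pdcd1lg2 and Met were seen in 73.5%, 64.7% and 71.6% of members, and all 4 in 5 cells. These genes and those of the gates were not tested.

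**Figure D2:**
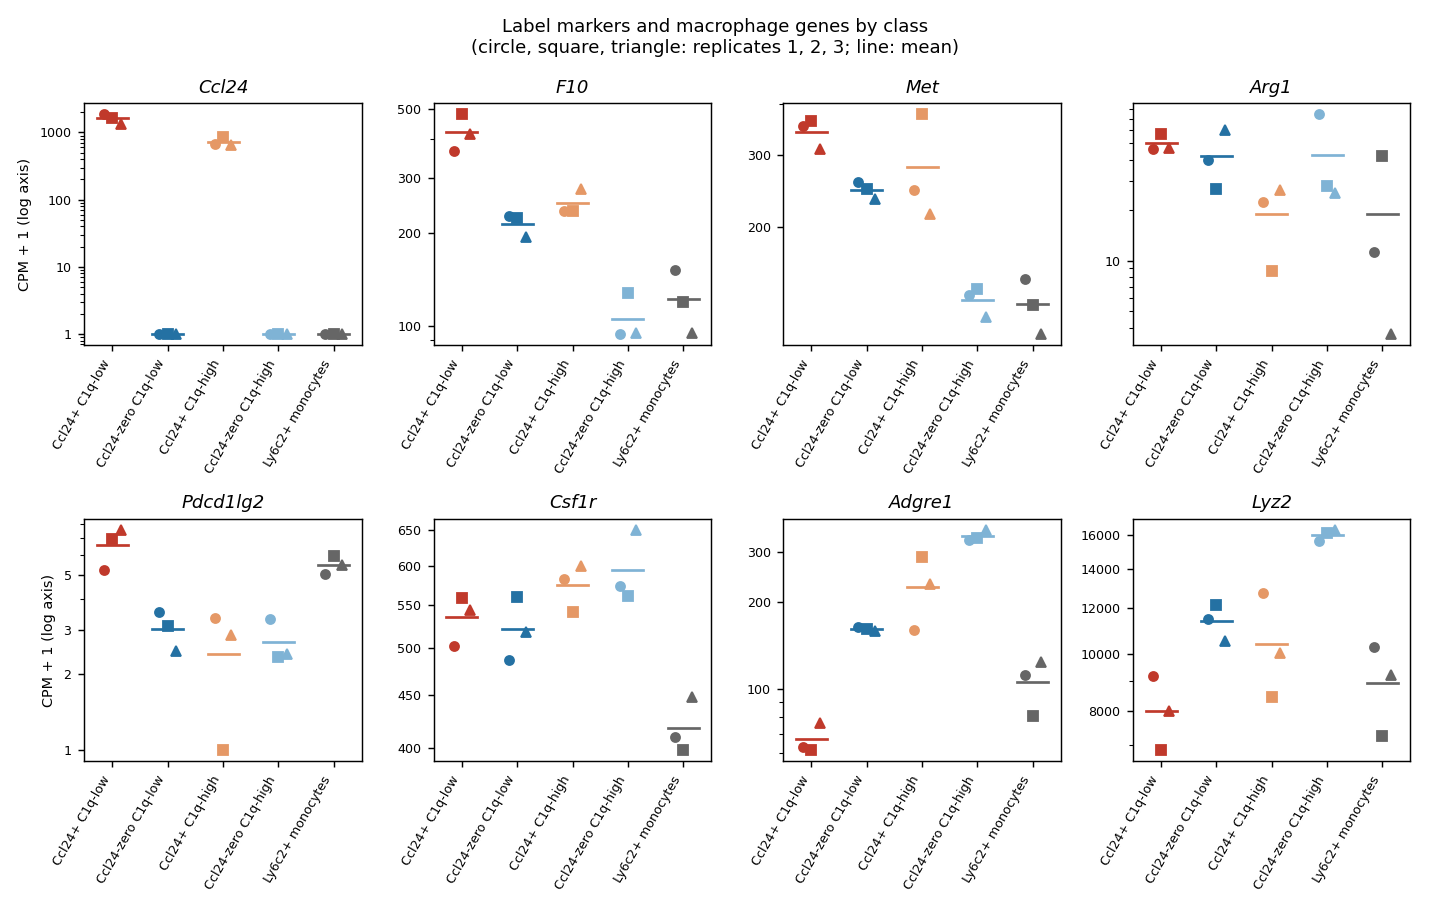
CPM plus 1 (log axis) of Ccl24, F10, Met, Arg1, Pdcd1lg2, Csf1r, Adgre1 and Lyz2 in 5 classes of cells. Circles, squares and triangles are replicates 1, 2 and 3 and the line is their mean. F10 stood higher in the class than in any other class shown. Arg1 overlapped between the class and the 2 Ccl24-zero macrophage classes. Adgre1 was lower in the class than in these 2 classes, which had to carry it.

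The class was first set against Ccl24-zero C1q-low macrophages, which had under 15 C1q UMIs per 10000, no Ccl24 and passed the stricter macrophage gate (480 cells, 199, 115 and 166 in the libraries). This asks what accompanies Ccl24 among cells with little C1q, but only the Ccl24-zero side was held to that gate. Of the class, 289 members did not pass it. C1q was also not alike on the 2 sides. Its median was 0.579, 0 and 0.925 UMIs per 10000 in the class and 1.64, 1.11 and 3.15 in the other cells. It was not detected in 218 of the 463 members and in 163 of the 480 other cells. The part of C1q in the calls was not tested. In the class, transcripts of growth factor Csf1 and metabolic enzymes Acss2 and Dglucy were higher by about the same log2 amount, and those of Gpnmb, Selenop and the actin regulator Mical2 were lower. Few genes differed: 48 of 10470 tested (0.458%) were called, meaning an adjusted p under 0.05 in edgeR's quasi-likelihood test with the library as block and a log2 difference of at least 1. Of the tested genes, 18 (0.172%) were higher in the class and 30 (0.287%) were lower.

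Csf1 stood at 193, 143 and 94.1 CPM in the class and at 47.3, 34.9 and 44.5 CPM in the Ccl24-zero C1q-low macrophages. Every value of the class lay above every value of the other cells, and the log2 difference was 1.69 (SE 0.18, adjusted p = 0.0094, edgeR). The gene was read from 229 of the 463 members, and the top cell of a library held 5.22 to 9.39% of its UMIs. Csf1 is not restricted to these cells: it had a UMI in 91.2% of Pdgfra-positive cells and 79.1% of cells rich in S100a8 and S100a9, against 48.9% ± 8.49 (SD, n = 3) of members.

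Acss2, which encodes the enzyme that makes acetyl-CoA from acetate, stood at 76.2, 136 and 129 CPM against 35.3, 21.7 and 41.0 CPM. Dglucy, which encodes D-glutamate cyclase, stood at 109, 95.6 and 77.2 CPM against 30.4, 31.7 and 29.8 CPM. Neither gene overlapped between the classes, with log2 differences of 1.67 (SE 0.23, adjusted p = 0.021) for Acss2 and 1.59 (SE 0.13, adjusted p = 0.0036) for Dglucy in edgeR. UMIs of Acss2 came from 185 members and those of Dglucy from 228. Tarm1, an activating receptor of myeloid cells, stood at 65.8, 53.8 and 53.8 CPM against 31.8, 30.1 and 18.6 CPM, again without overlap (log2 difference 1.12, SE 0.16, edgeR adjusted p = 0.025). Its log2 difference was 0.76 (adjusted p = 0.060) after thinning.

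Among chemokines, Ppbp (CXCL7, known from platelets) stood at 162, 52.9 and 69.5 CPM against 31.4, 1.59 and 12.1 CPM, and Ccl3 at 114, 69.2 and 40.7 CPM against 25.4, 31.7 and 20.9 CPM. Both were higher in every library without overlap (Ppbp log2 difference 2.66, SE 0.28, adjusted p = 0.0081; Ccl3 1.47, SE 0.24, adjusted p = 0.035, edgeR). Ppbp was read in 68 of the 463 members (14.7%), and the top cell of a library held 22.1 to 27.4% of its UMIs. It had a UMI in 14.3% of the Ccl24-zero C1q-high macrophages and 19.8% of the Ccl24-positive C1q-high cells. Its mean was 94.6 CPM in the class and 50.1 and 59.3 CPM in those cells, and it was not called against either. With the stricter macrophage gate on both sides, the Ccl3 log2 difference was 0.87 (adjusted p = 0.19, edgeR). Cxcl3, a chemokine that attracts neutrophils, stood at 2113, 1596 and 1263 CPM against 1213, 903 and 611 CPM. It was higher within each library and its log2 difference of 0.87 (adjusted p = 0.0036, edgeR) was under the size asked of a call.

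Selenop, which encodes a selenium carrier, stood at 45.8, 54.6 and 60.7 CPM in the class and at 122, 155 and 142 CPM in the Ccl24-zero C1q-low macrophages. Gpnmb, a glycoprotein of lysosomes and lipid-laden macrophages, stood at 99.9, 69.2 and 96.4 CPM against 370, 1032 and 571 CPM. Neither overlapped, with log2 differences of -1.39 (SE 0.09, adjusted p = 0.0023) for Selenop and -2.67 (SE 0.30, adjusted p = 0.0097) for Gpnmb in edgeR. In 1 library a single cell held 70.9% of the Gpnmb UMIs of the other class, whose mean without each library's top cell was 375 CPM. Mical2, an actin-oxidising enzyme, stood at 47.0, 41.0 and 36.9 CPM against 92.4, 95.7 and 94.1 CPM (log2 difference -1.19, SE 0.11, edgeR adjusted p = 0.0065). Mctp1, a calcium-binding membrane protein, stood at 98.2, 65.7 and 91.4 CPM against 191, 172 and 179 CPM (log2 difference -1.08, SE 0.10, edgeR adjusted p = 0.0061). Both lay apart in all 3 libraries. Apbb2 and Syne1 (nesprin-1, a linker of the nuclear envelope) were also lower, with log2 differences of -1.39 and -1.20 (adjusted p = 0.023 and 0.040, edgeR).

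Several of the largest differences came from few cells. Retnla, a classical type 2 gene, was read in 28 members at 39.0, 234 and 512 CPM against 7.15, 3.17 and 65.5 CPM, and the single top cell held 44.7 to 99.6% of its UMIs. Ccl22, a chemokine of dendritic cells and type 2 macrophages, was also read in 28 members, at 35, 37.6 and 106 CPM against 13.4, 1.59 and 6.20 CPM. Retnla overlapped between the classes and Ccl22 did not (log2 differences 3.29, SE 0.37, adjusted p = 0.0097 and 2.81, SE 0.50, adjusted p = 0.047, edgeR), and without each library's top cell the Ccl22 call was lost (2.45, adjusted p = 0.061). On the lower side, Mfge8, a bridge between phagocytes and dying cells, stood at 9.64, 10.3 and 12.3 CPM against 30.9, 1074 and 88.8 CPM, with up to 87.5% of a library's UMIs in 1 cell. Genes known from lymphatic endothelium, Ccl21a, Lyve1, Flt4, Reln and Mmrn1, were called lower as well. The summed endothelial markers stood at 45.6, 11.1 and 35.7 CPM in the class and at 91.7, 34.9 and 29.5 CPM in the other cells, lower in the class in replicates 1 and 2, and their part in these calls was not tested. Lyve1 was read in 6 of the 480 cells of the other class, and Ccl21a in 22.

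Leaving out replicate 1, 2 or 3 gave 74, 2 and 187 calls, and without replicate 2 only Retnla and Ppbp of the named genes passed, while Csf1, Acss2 and Dglucy had log2 differences of 1.59, 1.37 and 1.60 (adjusted p = 0.13, 0.10 and 0.073, edgeR).

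The second comparison was with Ccl24-positive C1q-high cells, which shared the Ccl24 threshold and differed by the C1q threshold. Replicate 2 held 16 of these cells, under the minimum of 20 a side, so the test used replicates 1 and 3 (52 and 48 cells). At a like Ccl24 requirement the C1q-low cells had less RNA of Selenop, the mannose receptor Mrc1 and Apoe, and more of Csf1, Tnf and Acss2. Of 9350 genes tested, 134 (1.43%) were called, 41 (0.439%) higher and 93 (0.995%) lower in the class. The class sums are the same as in the first comparison, so the comparisons are not independent. Ccl24 itself, set by the rule, stood at 1857, 1649 and 1347 CPM in the class and at 671, 855 and 646 CPM in the C1q-high cells.

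In replicates 1 and 3, Selenop stood at 45.8 and 60.7 CPM in the class and at 231 and 500 CPM in the C1q-high cells. Mrc1 stood at 49.1 and 54.9 CPM against 206 and 404 CPM. The lipoprotein gene Apoe stood at 905 and 812 CPM against 2713 and 2829 CPM. None of the 3 overlapped, with log2 differences of -2.70 (SE 0.16, adjusted p = 6.9e-08) for Selenop, -2.48 (SE 0.17, adjusted p = 4.3e-07) for Mrc1 and -1.70 (SE 0.10, adjusted p = 6.9e-08) for Apoe in edgeR. Gpnmb was lower by a log2 difference of -1.79 (SE 0.14), Ms4a7 by -2.32 (SE 0.20), the Fc receptor-like gene Fcrls by -2.27 (SE 0.20), Pmp22 by -2.03 (SE 0.21) and Tmem176b by -1.82 (SE 0.17), with adjusted p-values of 2.4e-06, 8.5e-06, 8.5e-06, 4.4e-05 and 1.4e-05 in edgeR. Retnla went the other way from the first comparison, at 39.0 and 512 CPM in the class against 1076 and 1664 CPM (log2 difference -3.08, SE 0.45, edgeR adjusted p = 0.00093). In the C1q-high cells Retnla came from 15 of 116 cells, and the top cell of a library held 41.8 to 100% of its UMIs. Without top cells its mean over all 3 libraries was 443 CPM ± 512 in the C1q-high cells and 101 CPM ± 160 in the class (SD, n = 3).

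On the higher side, Csf1 stood at 193 and 94.1 CPM against 72.9 and 33.6 CPM, and Tnf, a central inflammatory cytokine, at 153 and 79.5 CPM against 49.9 and 27.0 CPM. Acss2 stood at 76.2 and 129 CPM against 31.7 and 16.8 CPM, and Dglucy at 109 and 77.2 CPM against 43.6 and 23.3 CPM. All 4 were higher in both libraries without overlap, by log2 differences of 1.43 (SE 0.15, adjusted p = 5e-05), 1.58 (SE 0.17, adjusted p = 4.4e-05), 1.98 (SE 0.27, adjusted p = 0.00061) and 1.46 (SE 0.18, adjusted p = 0.00027) in edgeR. Ccl22 and the monocyte gene Plac8 were also called, by 2.56 and 1.81 (adjusted p = 2.5e-05 and 0.0011, edgeR). Thbs4 and Mgp, matrix genes known from connective tissue, were called with 154 and 138 CPM in replicate 3 of the class and 7.99 and 20.2 CPM in replicate 1. Up to 94.5% of the Thbs4 UMIs of a library came from 1 cell, and its log2 difference without top cells was 0.49. Muscle fibre genes Acta1, Ckm, Mylpf and Tnnc2 were called higher as well, with Acta1 at 78.5 and 12.3 CPM against 10.3 and 8.39 CPM. Summed muscle markers came to 152, 7.68 and 27.7 CPM in the class, highest in replicate 1, and to 19.2 to 23.8 CPM in the Ccl24-positive C1q-high cells. Their part in these calls was not tested.

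With 2 libraries there is 1 residual degree of freedom among samples, and leaving out either library allows no test. The small adjusted p-values of this comparison therefore lean on variation that edgeR pools across genes. Of 38 named or list genes, 18 lost the call by DESeq2 and 26 without the library block, and none reversed. With the stricter macrophage gate on both sides, Csf1 and Tnf had log2 differences of 0.94 and 0.92, under the size asked of a call.

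**Figure D3:**
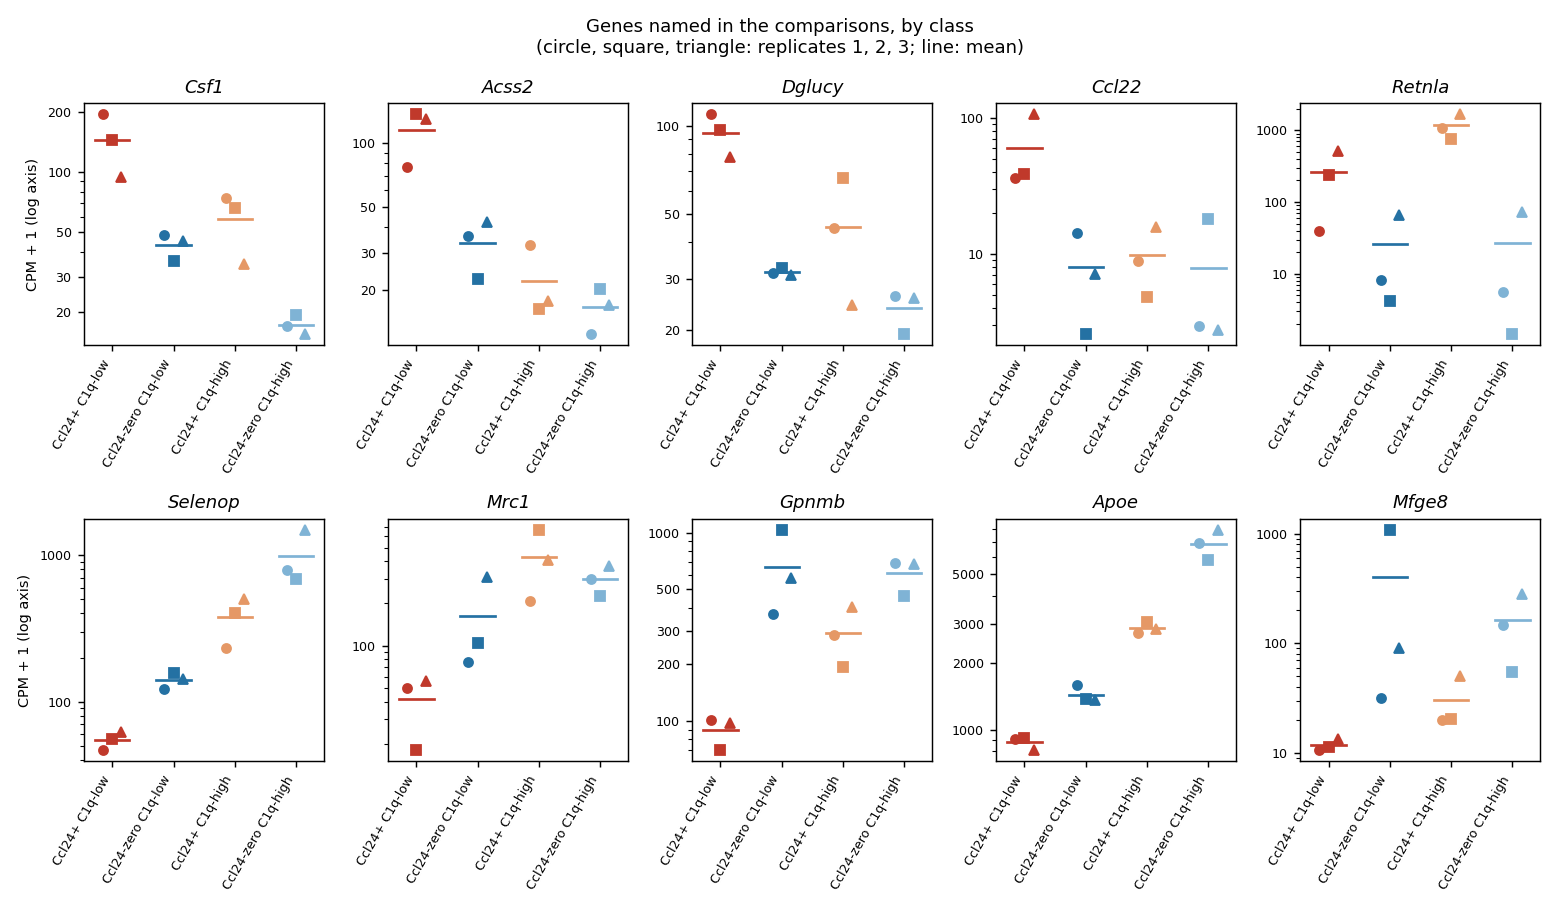
CPM of Csf1, Acss2, Dglucy, Ccl22, Retnla, Selenop, Mrc1, Gpnmb, Apoe and Mfge8 in the 4 classes compared. Circles, squares and triangles are replicates 1, 2 and 3 and the line is their mean. Csf1 stood at 94.1 to 193 CPM in the class, above every other class in the plot, and Selenop at 45.8 to 60.7 CPM, below every other class.

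The third comparison was with Ccl24-zero C1q-high macrophages (687 cells, 259, 131 and 297 in the libraries), which differ from the class in both gate genes. They also had to pass the stricter macrophage gate, which bars cells with Ly6c2 or Flt3, while the class did not. Of 10710 genes tested, 632 (5.90%) were called, 250 (2.33%) higher and 382 (3.57%) lower in the class. Csf1, Acss2, Vcan and the monocyte-associated genes Chil3 and Plac8 were higher, and Selenop, Ms4a7, Gas6, Apoe and Mrc1 were lower. With the stricter macrophage gate on both sides, 370 of the 632 calls were kept. Of 71 named or list genes, 51 stayed calls, 15 lost the call, 1 reversed (Plac8) and 4 had no test.

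Csf1 stood at 16.1, 18.4 and 14.5 CPM in the Ccl24-zero C1q-high macrophages, below all class values, with a log2 difference of 3.09 (SE 0.16, adjusted p = 2.6e-06, edgeR). Acss2 stood at 11.4, 19.3 and 16.1 CPM, with a difference of 2.82 (SE 0.11, adjusted p = 4.8e-07, edgeR). Chil3, a chitinase-like protein of monocytes and type 2 macrophages, stood at 87.7, 70.0 and 57.6 CPM in the class against 8.03, 7.17 and 5.85 CPM. The 2 classes did not overlap (log2 difference 3.31, SE 0.14, adjusted p = 6.3e-07, edgeR), while against the C1q-low macrophages Chil3 differed by 0.30 (adjusted p = 0.31). Vcan, which encodes the matrix proteoglycan versican, stood at 123, 149 and 77.6 CPM against 25, 22.0 and 13.1 CPM, and Ece1, endothelin-converting enzyme, at 108, 65.7 and 89.9 CPM against 19.8, 15.2 and 17.0 CPM. Their log2 differences were 2.46 and 2.32 (adjusted p = 1.4e-06 and 2.2e-06, edgeR), with every class value above the others. Plac8 stood at 79.0, 105 and 36.5 CPM against 7.50, 2.69 and 5.31 CPM (log2 difference 3.48, SE 0.28, edgeR adjusted p = 3.7e-05). That difference turned to -0.20 (adjusted p = 0.86) when the class, too, was limited to cells that passed the stricter macrophage gate.

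Selenop stood at 786, 686 and 1479 CPM in the Ccl24-zero C1q-high macrophages, with a log2 difference of -4.23 (SE 0.15, adjusted p = 2.5e-07, edgeR). It was read in 599 of those 687 cells and in 165 of the 463 members. Apoe stood at 905, 919 and 812 CPM in the class against 6919, 5781 and 7896 CPM, and Mrc1 at 49.1, 17.1 and 54.9 CPM against 300, 226 and 370 CPM. Neither overlapped, and the log2 differences were -3.01 (SE 0.11) and -2.88 (SE 0.15), with adjusted p-values of 2.5e-07 and 2.1e-06 in edgeR. Gas6, a bridging ligand of the uptake receptors MERTK and AXL, stood at 4.47, 3.42 and 12.7 CPM against 51.1, 43.0 and 84.1 CPM, also apart in every library (log2 difference -3.18, SE 0.19, edgeR adjusted p = 5.3e-06). Ms4a7, Mfge8, the integrin gene Itga9 and Gpnmb were lower by log2 differences of -4.14, -4.05, -3.18 and -2.83. Lyz2, though seen in nearly every cell of the class, was lower too, at 9166, 6851 and 8001 CPM against 15653, 16169 and 16335 CPM (log2 difference -1.06, SE 0.09, edgeR adjusted p = 4.4e-05).

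The gene lists that follow give the number of tested members called higher and lower, to be read against the percentages above, and the median log2 difference, beside medians over all tested genes of 0.0006, -0.0021 and 0.0018 in the order of the comparisons (C1q-low without Ccl24, C1q-high with Ccl24, C1q-high without Ccl24).

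Of the type 2 activation list, 2 of 14 genes were higher and none lower in the first comparison (median 0.18), 1 higher and 2 lower of 13 in the second (-0.24), and 5 higher and 2 lower of 14 in the third (0.33). The 2 in the first were Retnla and Ccl22, each read in 28 cells. In the third the higher genes were these 2 with Chil3, the transcription factor Irf4 (1.13, adjusted p = 0.0054, edgeR) and the cadherin Cdh1 (2.57, adjusted p = 0.0058, edgeR). The lower ones were Mrc1 and the lectin Mgl2 (-1.11, adjusted p = 0.036, edgeR). Cdh1 was read in 26 members and 10 of the 687 other cells, and Mgl2 in 17 and 30. Without top cells the mean of Mgl2 was 2.79 CPM in the class and 5.89 CPM in the other cells. Il1rn, the IL-1 receptor antagonist, stood at 503, 463 and 466 CPM in the class and at 381, 340 and 239 CPM in the Ccl24-zero C1q-low macrophages, without overlap (log2 difference 0.58, edgeR adjusted p = 0.059). The IL-4 receptor gene Il4ra stood at 29.4, 51.2 and 26.9 CPM against 47.3, 35.9 and 31.6 CPM, with overlap.

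STAT6, the transcription factor activated by IL-4 and IL-13, is known to bind the motif TTCNNNNGAA, which reads the same on both strands. The 250 bases before the start of each gene (RefSeq, GRCm38.p6) were searched for these letters. They occurred in 1923 of 32851 such windows (5.85%), and in 4 of the 13 type 2 genes with a window: Retnla, Pdcd1lg2, Ccl17 and Il1rn. The first is a share of windows and the second of genes. Some genes have several windows (Il1rn 3, Egr2 5), so the shares are not alike. F10 and Met had none in this window, and Ccl24 and Arg1 had no window and were not searched. The windows of Retnla (chr16:48842359-48842608, + strand) and Pdcd1lg2 (chr19:29410669-29410918, + strand) are shown because both genes are classical type 2 targets that were sparse in these cells. Capitals mark the motif, which lies 145 to 136 bases before the start of Retnla and 82 to 73 bases before that of Pdcd1lg2. A match of letters is a description, not a binding site shown in these cells.
Retnla: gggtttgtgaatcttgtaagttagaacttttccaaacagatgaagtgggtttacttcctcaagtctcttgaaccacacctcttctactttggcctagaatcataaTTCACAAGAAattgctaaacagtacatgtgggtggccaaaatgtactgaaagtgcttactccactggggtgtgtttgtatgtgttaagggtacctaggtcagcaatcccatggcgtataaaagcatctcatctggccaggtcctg
Pdcd1lg2: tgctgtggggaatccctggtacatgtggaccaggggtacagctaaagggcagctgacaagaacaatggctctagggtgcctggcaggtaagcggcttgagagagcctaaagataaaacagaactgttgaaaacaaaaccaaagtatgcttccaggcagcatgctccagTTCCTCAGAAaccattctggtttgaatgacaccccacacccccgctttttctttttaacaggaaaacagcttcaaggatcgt

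Of the list of resident tissue macrophage genes, none was called higher, and 2 of 12, 6 of 11 and 10 of 13 were called lower in the 3 comparisons (medians -0.61, -1.92 and -1.77). The folate receptor gene Folr2 stood at 12.9, 14.5 and 6.15 CPM in the class and at 63.6, 46.2 and 57.0 CPM in the Ccl24-zero C1q-high macrophages, apart in every library (-2.46, adjusted p = 6e-05, edgeR). Stab1, a scavenger receptor, and the growth factor Igf1 were lower there by -1.77 and -1.50 (adjusted p = 3.9e-05 and 7e-06, edgeR). The 2 genes in the first comparison were Selenop and Lyve1, which was read in 6 cells of the other class and is also a lymphatic gene.

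The efferocytosis list, genes for the uptake of dying cells, had no gene called higher and 1, 3 and 5 of 10 called lower (medians -0.39, -0.64 and -1.09). In the second comparison DESeq2 called none of them. Mertk, an uptake receptor, stood at 51.9, 26.5 and 48.8 CPM in the class, at 100, 78.7 and 73.5 CPM in the Ccl24-zero C1q-low macrophages and at 217, 158 and 218 CPM in the Ccl24-zero C1q-high macrophages. The class lay below both without overlap (log2 differences -0.97, adjusted p = 0.040, under the size asked of a call, and -2.23, adjusted p = 1.4e-06, edgeR). Its relative Axl had the opposite direction, at 272, 255 and 247 CPM in the class, against 184, 176 and 171 CPM and 150, 152 and 159 CPM. Axl did not overlap in either comparison, and its log2 differences of 0.52 and 0.70 (adjusted p = 0.016 and 0.00039, edgeR) were not calls.

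Genes of lipid handling were split. In the 3 comparisons 0, 1 and 1 of 18 were higher and 1, 3 and 6 were lower (medians -0.25, -0.26 and -0.45). Lpl, lipoprotein lipase, stood at 5427, 5061 and 5893 CPM in the class and at 2264, 2435 and 2710 CPM in the Ccl24-zero C1q-high macrophages, without overlap (1.1, SE 0.07, edgeR adjusted p = 8.1e-06). Against the Ccl24-zero C1q-low macrophages it overlapped, with a log2 difference of 0.02 (SE 0.06). The fatty acid carrier Fabp5 was lower, at 176, 155 and 200 CPM against 716, 515 and 624 CPM in the third comparison (-1.86, SE 0.09, edgeR adjusted p = 1.4e-06), and Trem2, a lipid-sensing receptor, at 268, 239 and 255 CPM against 504, 503 and 549 CPM (-1.07, SE 0.08, edgeR adjusted p = 2.4e-05). Both lay apart in every library. Spp1 (osteopontin) was called in the second comparison (1.31, adjusted p = 1.9e-05, edgeR), where it stood at 2845 and 1672 CPM against 916 and 838 CPM.

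Of 11 pro-inflammatory genes tested, 0, 2 and 4 were called higher and none lower in edgeR (medians 0.25, 0.34 and 0.51). In the first comparison DESeq2 also called none, and 3 had an unadjusted p under 0.05, and in the second it called 1. Il1b stood at 718, 768 and 523 CPM in the class, at 480, 367 and 379 CPM in the Ccl24-zero C1q-low macrophages and at 160, 303 and 289 CPM in the Ccl24-zero C1q-high macrophages. The class lay above both, by log2 differences of 0.67 (adjusted p = 0.031, not a call) and 1.41 (SE 0.20, adjusted p = 0.0010) in edgeR. Acod1, the enzyme that makes itaconate, stood at 108, 130 and 181 CPM against 39.1, 70.4 and 36.7 CPM in the third comparison, without overlap (1.56, SE 0.20, edgeR adjusted p = 0.00063). Il1a and Tnf were the other genes called there (2.07 and 1.70). Of other chemokines, 2 and 0 of 14, 1 and 0 of 14, and 5 and 2 of 15 were higher and lower (medians 0.44, 0.34 and 0.50). Cxcl3 and Cxcl14 were among those higher in the third comparison (1.59 and 1.15, adjusted p = 0.00018 and 0.00027, edgeR). Ccl3 and Ccl4 were called there as well, and without replicate 1 their log2 differences were 0.41 and 0.47.

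**Figure D4:**
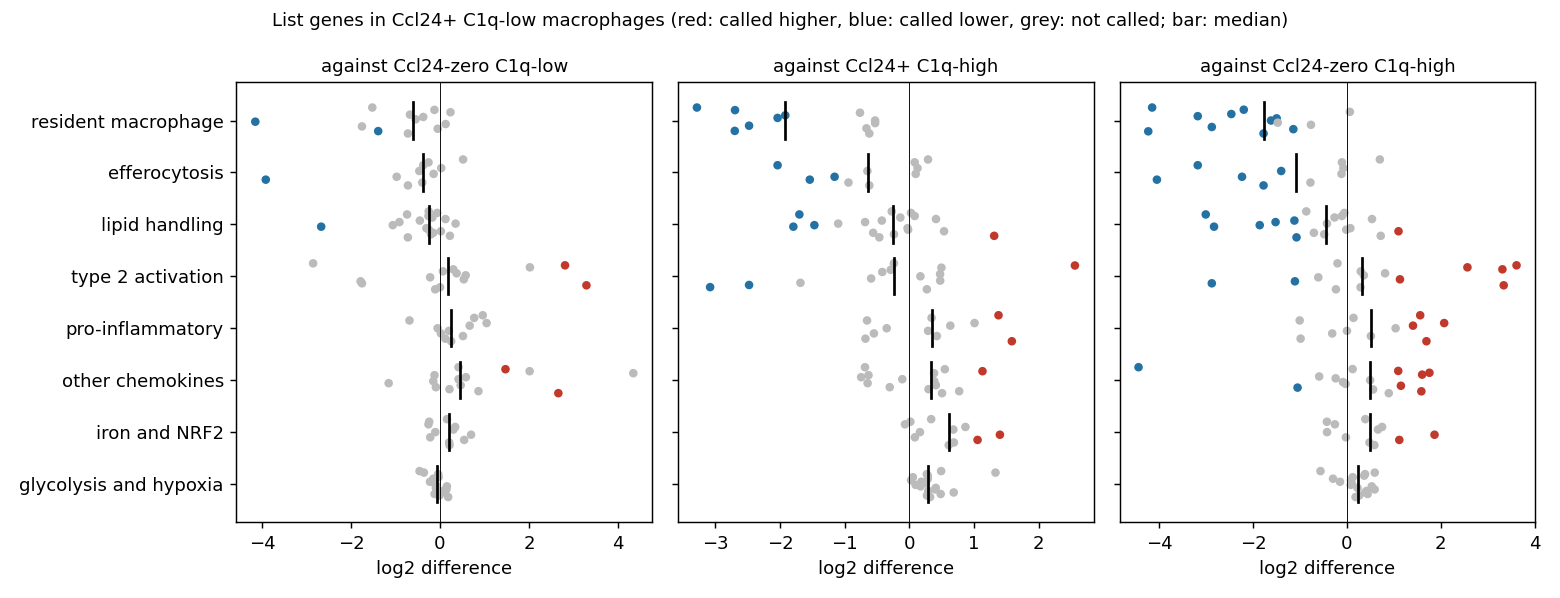
Log2 differences (class against the other cells, positive when higher in the class) of the tested genes of 8 lists in the 3 comparisons. Red and blue points are genes called higher and lower, grey points were not called, and bars are medians. The resident macrophage points lie mostly below 0 in the comparisons with C1q-high cells, and no glycolysis gene was called.

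Of the iron and NRF2 list (antioxidant response), 0, 2 and 2 of 11 were higher and none lower (medians 0.21, 0.61 and 0.48). Slc7a11, the cystine transporter, stood at 693, 700 and 799 CPM in the class, at 544, 430 and 502 CPM in the Ccl24-zero C1q-low macrophages and at 340, 350 and 293 CPM in the Ccl24-zero C1q-high macrophages. It was higher in every library in both, by 0.55 (adjusted p = 0.025, not a call) and 1.12 (SE 0.09, adjusted p = 5.1e-05) in edgeR, and was read in 415 members. Nqo1, another NRF2 target, was called in the second comparison (1.40) and in the third (1.87), and in the second DESeq2 called no gene of the list. Heme oxygenase Hmox1 stood at 213, 211 and 202 CPM against 283, 326 and 221 CPM in the third, where its log2 difference of -0.42 (edgeR adjusted p = 0.014) was not a call. None of 18 glycolysis and hypoxia genes was called in any comparison by edgeR or DESeq2 (medians -0.07, 0.28 and 0.25), and 4, 10 and 10 had an unadjusted p under 0.05. Pkm, the pyruvate kinase gene, stood at 869, 925 and 914 CPM in the class and at 639, 738 and 593 CPM in the Ccl24-zero C1q-high macrophages, apart in every library (log2 difference 0.42, edgeR adjusted p = 0.0043).

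Around factor X, no gene of the coagulation and plasminogen list was called higher, and none of 13, none of 11 and 1 of 12 lower (medians -0.24, -0.76 and -0.01). DESeq2 called none, and 7, 9 and 6 had an unadjusted p under 0.05 in edgeR. F7, the protease that activates factor X, stood at 146, 133 and 153 CPM in the class and at 158, 157 and 188 CPM in the Ccl24-zero C1q-low macrophages (log2 difference -0.24, edgeR adjusted p = 0.20). Tfpi, the inhibitor of that step, was the gene called lower in the third comparison (-1.0, adjusted p = 0.035, edgeR), at 4.61 to 6.83 CPM in the class. Around Met, 2 of 4 genes were higher in the third comparison and none in the others: Spint1 and Spint2, inhibitors of the proteases that activate HGF (2.15 and 2.52, adjusted p = 0.013 and 0.023, edgeR), at 2.12 to 10.3 CPM in the class. DESeq2 called neither. Hgf itself stood at 14.3, 13.7 and 34.2 CPM in the class and overlapped the other classes.

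Cell fusion and matrix genes had calls in both directions. Of the fusion and osteoclast list, 1 of 11, 0 of 10 and 2 of 11 were higher and 1, 2 and 3 lower. The medians were -0.08, -0.12 and -0.13. Atp6v0d2 and Acp5 were called lower in the third comparison. Atp6v0d2 stood at 65.1, 52.9 and 50.3 CPM in the class against 188, 196 and 210 CPM. Acp5 stood at 150, 147 and 186 CPM against 327, 387 and 307 CPM. Ocstamp, needed for the fusion of macrophages into giant cells, stood at 43.7, 30.7 and 28.8 CPM in the class, at 21.2, 12.7 and 13.6 CPM in the Ccl24-zero C1q-low macrophages and at 2.14, 1.35 and 4.78 CPM in the Ccl24-zero C1q-high macrophages. It was apart from both (1.09, SE 0.14, adjusted p = 0.018 and 3.48, SE 0.32, adjusted p = 8.4e-05, edgeR), while its partner Dcstamp was called in the third comparison (1.58, adjusted p = 1.7e-05, edgeR). The collagen-degrading protease Ctsk was lower in all 3 comparisons, by -1.07, -1.30 and -1.28 (adjusted p = 0.019, 8.5e-06 and 0.00069, edgeR). Without top cells the first and second were -0.99 and -0.95, under the size asked of a call. Of the list of matrix proteases and inhibitors, 1 of 17, 0 of 16 and 2 of 17 were higher and 1, 3 and 4 lower (medians -0.20, -0.15 and 0.07). The protease inhibitors Timp1 and Timp2 differed in opposite directions in the third comparison, by 1.46 and -2.02. Mmp12, macrophage elastase, stood at 4673, 4575 and 4113 CPM and was not called in any. Of 12 arginine and polyamine genes tested, 0, 1 and 2 were higher and none lower in the 3 comparisons (medians 0.05, 0.14 and 0.24). Arg2 and Ass1 were higher in the third comparison (1.24 and 1.20), and Ass1 also in the second (1.15, adjusted p = 5.1e-05, edgeR).

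Of the growth factor list, 1 of 15, 1 of 14 and 3 of 14 genes were higher and 0, 1 and 3 lower (medians 0.02, 0.21 and -0.17). Csf1 was higher in all 3 comparisons, and in the third it was joined by the EGF-receptor ligand Areg and by Inhba, an activin subunit (1.94 and 1.82, adjusted p = 4.5e-05 and 0.0044, edgeR). With the stricter macrophage gate on both sides, Inhba differed by 0.44. Pdgfc, Igf1 and Grn were lower there (-3.32, -1.50 and -1.10). Of 12 dissociation stress genes, none was called in the first comparison by edgeR or DESeq2 (8 at an unadjusted p under 0.05), Egr1 was lower in the second (-1.09) and Hspa1b higher in the third (1.05). No gene of costimulation and checkpoint (10 tested) was called by edgeR or DESeq2, with 5 at an unadjusted p under 0.05 in each comparison, and none of the chemokine receptors (7, 6 and 7 tested), with 3, 2 and 5. Cd274 (PD-L1) stood at 67.0, 82.8 and 69.1 CPM in the class and at 40.5, 42.2 and 30.8 CPM in the Ccl24-zero C1q-high macrophages, without overlap, and its log2 difference of 0.90 (edgeR adjusted p = 0.00064) was under the size asked of a call. MHC class II had 1 of 8 called (H2-DMb2, higher in the third comparison), and DESeq2 called none. The medians were 0.12, -0.72 and -0.16, and 1, 7 and 3 genes had an unadjusted p under 0.05 in edgeR. H2-DMb2 was read in 23 members at a mean of 8.33 CPM, with up to 71.4% of a library's UMIs in 1 cell. H2-Aa, an MHC class II chain, stood at 967 and 1421 CPM in the class against 1567 and 2274 CPM in the second comparison, lower in both libraries (log2 difference -0.70, edgeR adjusted p = 0.00048, not a call). The interferon list also had 1 of 8 called in the third comparison (Isg15). Mki67, a gene of dividing cells, had a UMI in 2.97% ± 0.797 of members (SD, n = 3) and was lower in both comparisons with C1q-high cells (-2.31 in each, adjusted p = 0.017 and 0.0022, edgeR). It was read in 14 members and in 14 of the 116 Ccl24-positive C1q-high cells, where its mean was 36.0 CPM with and 9.40 CPM without top cells, and DESeq2 called no cell cycle gene in that comparison.

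Within the class, members of each library were divided into tertiles by Ccl24 per 10000 UMIs (156, 154 and 153 cells in all). The high tertile held 48.4% of the libraries' Ccl24 UMIs. The tertiles differ in depth, with mean median UMIs of 19851, 12372 and 12165 from low to high, and no test was made. F10 stood at 333, 424 and 359 CPM in the low tertile and 470, 611 and 546 CPM in the high tertile, and Met at 282, 298 and 278 CPM and 451, 490 and 368 CPM, so both were higher in the high tertile of every library. Slc7a11 stood at 601, 635 and 738 CPM in the low and 1038, 1066 and 1098 CPM in the high tertile, also without overlap. Mmp12 went the other way, from 5202, 7392 and 5325 CPM to 1855, 2347 and 1467 CPM, and Lyz2 from 9979, 8894 and 10883 CPM to 6305, 4927 and 4131 CPM. Gpnmb stood at 110, 85.2 and 124 CPM in the low tertile and 18.9, 42.5 and 36.8 CPM in the high tertile. Csf1 was higher in the high tertile of replicates 1 and 2 (299 and 258 CPM against 103 and 93.7 CPM) and close in replicate 3 (89.3 against 81.9 CPM).

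**Figure D5:**
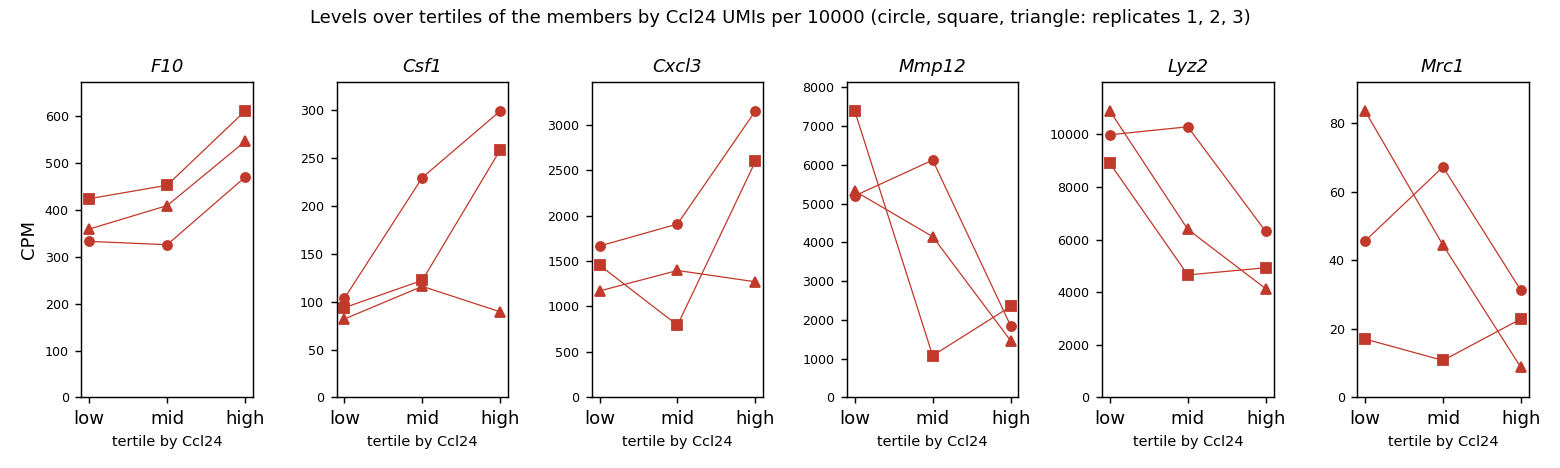
CPM of F10, Csf1, Cxcl3, Mmp12, Lyz2 and Mrc1 over the low, middle and high tertile of members by Ccl24 per 10000 UMIs, with 1 line for each replicate. F10 was higher and Mmp12 and Lyz2 were lower in the high tertile than in the low tertile of every replicate.

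The 174 members that passed the stricter macrophage gate and the 289 that did not were also set side by side, without a test. F10 stood at 366, 405 and 458 CPM in the former and 364, 524 and 381 CPM in the latter, with overlap, and Ccl24 at 1694, 1302 and 815 CPM and 1992, 1854 and 1798 CPM. Gpnmb was higher in those that passed, at 141, 124 and 134 CPM against 66.2, 36.7 and 64.6 CPM, and Csf1 was lower, at 169, 98.9 and 65.3 CPM against 214, 170 and 119 CPM, in each library. The Ccl24-zero classes had been held to that gate and the class had not. With the gate on both sides, 27 of the 48 calls of the first comparison were kept. Csf1, Acss2, Dglucy, Gpnmb and Selenop were still called there.

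Markers of other cell types were summed in the same way. Monocyte markers came to 473 to 615 CPM in the class, 343 to 472 CPM in the Ccl24-zero C1q-low macrophages and 3502 to 5793 CPM in the Ly6c2-positive cells. Ly6c2 is among these markers. It had to be absent in those macrophages and present in the Ly6c2-positive cells, so part of this order was set by the gates. Conventional dendritic cell markers came to 44.9 to 114 CPM in the class, above the 8.46 to 35.7 CPM of the Ccl24-zero C1q-low macrophages, which had been chosen to lack Flt3, and their part in the Ccl22 result was not tested. Neutrophil markers came to 111 to 145 CPM, against 130 to 193 CPM in those macrophages, with S100a8 and S100a9 limited by the gate in both. Fibroblast markers came to 383, 653 and 1744 CPM in the class, against 388 to 590 CPM, and mast cell markers to 8.23, 1.71 and 436 CPM, so both were highest in replicate 3, where Thbs4 and Mgp were also high. Their part in those results was not tested. Of 5 eosinophil markers, Epx, Prg2, Ccr3 and Il5ra were at 0 in the class.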

How the data were processed

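The authors deposited a filtered matrix of UMI counts per gene and barcode for each library, made with Cell Ranger (6.1.2 per the submitters' processing notes, 7.0.0 per the file headers). Genome build, annotation and any counting of introns: not given in the sources used here. Each library held 104482261 to 192348779 UMIs.

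Cells were selected with scanpy 1.11.5 in Python 3.11.15. Counts were summed per class and library, giving plain CPM, and tested in R 4.3.3 with edgeR 4.0.16 (limma 3.58.1): filterByExpr, TMM, quasi-likelihood test, library as block because both sums of a library come from one suspension, and Benjamini-Hochberg adjustment over all tested genes. A call needed an adjusted p under 0.05 and a log2 difference of at least 1. On simulated counts the test gave an FDR under 0.05 to 84%, 69% and 78% of genes changed by a log2 of 1 in the 3 comparisons (over 10485, 9364 and 10725 genes). These shares leave out the log2 size asked of a call, so they are not shares of calls. The simulation used 1 dispersion for all genes and no difference between libraries other than depth. It does not give the power for genes read from few cells or varying between libraries. Gate genes and the 5 genes of the working name were described, not tested. Of called genes with 1 direction in all libraries and at least 50 CPM on the higher side, the 8 largest each way were named, along with list members. The members and lists were chosen with earlier results of these data known.

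Doublets were kept in the main analysis, and the barcodes with the highest Scrublet scores (0.8% per 1000 barcodes) were left out as an alternative. Other alternatives were the scaling, the low-count filter, DESeq2 1.42.0, the block, each replicate, 5 Ccl24 UMIs, C1q under 10, mitochondrial share under 10%, thinning to 5000 UMIs and the macrophage gate on both sides. Intervals on shares are exact binomial at 95%.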

Additional observations from a re-analysis of the deposited data

How the results depend on the processing

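Of the main counts of calls (48, 134 and 632 in the order of the report), the first depended most on the settings. It was 216 without the low-count filter, 84 with the highest Scrublet scores left out, 81 with at least 5 Ccl24 UMIs, 31 with C1q under 10 per 10000 and 2 to 187 with a replicate left out. The second was 239 without the filter, and 35 by DESeq2. The third was 412 by DESeq2, and its leave-one-out range was 589 to 655. Without the replicate block (both sums of a library come from one suspension, which is where the pairing comes from) the counts were 35, 25 and 592. Leaving out a replicate could not be fitted in the second comparison. The cause of these shifts was not tested. Of the settings added after seeing the data, removing each gene's top cell gave 81, 117 and 703 calls, of which 35, 97 and 566 were shared with the main ones, and all 3 libraries in the second comparison gave 126, with 103 shared. With the macrophage gate on both sides, the share of calls that were higher in the class was 24.5% in place of 37.5% in the first comparison and 29.5% in place of 39.6% in the third. Without replicate 1 it was 50% in the first, and without the block 12% in place of 30.6% in the second. Of 280, 456 and 994 values of watched genes over the settings, 220, 355 and 898 stayed calls in the same direction, 52, 86 and 71 lost the call in that direction, 8, 15 and 24 had no test under the setting, and 1 reversed, Plac8 against Ccl24-zero C1q-high macrophages (-0.20 with the macrophage gate on both sides). The number of members was 463, and 455, 383, 449 and 424 with top doublet scores out, 5 Ccl24 UMIs, a mitochondrial share under 10% and C1q under 10, a mean of 10.2 to 12.8% of gated cells. Genes read in few cells, such as Pdcd1lg2, are limited by depth.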
